A study of Mus musculus with 2 samples.

Results

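The 57 genes described here encode G protein-coupled receptors for transmitters and peptides. They were taken by name, for the 14 transmitter groups they serve, from the 21887 protein-coding genes of the mouse genome build mm10. Every H3K4me3 peak with at least 1 bp over a gene model, or within 1 kb of it on either side, was assigned to that gene. The peaks come from 1 chromatin immunoprecipitation (ChIP) library of H3K4me3, trimethylation of histone H3 at lysine 4, made from NOS1+ enteric neurons sorted from the mouse small intestine. One input chromatin library of the same sorted cells is the other sample of the study, and no file of it was used here. NOS1 is the neuronal nitric oxide synthase, the enzyme of the inhibitory motor neurons of the gut. The sources used here do not state the strain, the age or number of animals, or how the cells were sorted. With 1 library there is no replicate, so each value below is a single measurement, no test was possible, and intervals over genes cover counting error only.

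G protein-coupled receptors cross the membrane 7 times and pass the binding of a ligand to heterotrimeric G proteins. Receptors coupled to Gs raise cyclic AMP, those coupled to Gi lower it and open potassium channels, and those coupled to Gq release calcium through phospholipase C. In the gut wall, acetylcholine and tachykinins excite smooth muscle and neurons, while nitric oxide, VIP and purines inhibit muscle. Opioids, noradrenaline, somatostatin and neuropeptide Y mostly restrain transmitter release from enteric neurons. H3K4me3 marks promoters that are active or poised, and a peak is not a measure of the amount of RNA or receptor.

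To show what the promoters of marked and unmarked receptor genes look like, 8 promoter windows are printed from RefSeq (GRCm38.p6, the same chromosome coordinates as mm10). They were chosen after their values were seen. Each window runs 5′ to 3′ on the strand of the gene, from 250 bases before the start site to 50 after it, and capitals mark every CG pair. The first 5 genes had a peak at the start site. These are Gabbr1 (chr17:37045716-37046015, plus strand), P2ry1 (chr3:61002535-61002834, plus strand), Chrm2 (chr6:36387834-36388133, plus strand), Vipr2 (chr12:116077476-116077775, plus strand) and P2ry12 (chr3:59262936-59263235, minus strand). The last 3 had no peak anywhere. These are Drd5 (chr5:38319259-38319558, plus strand), Drd2 (chr9:49340153-49340452, plus strand) and Tacr2 (chr10:62252188-62252487, plus strand).
Gabbr1: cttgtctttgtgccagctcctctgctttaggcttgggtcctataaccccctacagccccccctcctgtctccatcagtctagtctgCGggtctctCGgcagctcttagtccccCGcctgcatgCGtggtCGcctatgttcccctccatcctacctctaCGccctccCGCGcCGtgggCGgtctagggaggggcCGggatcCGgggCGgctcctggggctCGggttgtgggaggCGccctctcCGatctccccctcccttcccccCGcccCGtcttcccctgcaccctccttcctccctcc
P2ry1: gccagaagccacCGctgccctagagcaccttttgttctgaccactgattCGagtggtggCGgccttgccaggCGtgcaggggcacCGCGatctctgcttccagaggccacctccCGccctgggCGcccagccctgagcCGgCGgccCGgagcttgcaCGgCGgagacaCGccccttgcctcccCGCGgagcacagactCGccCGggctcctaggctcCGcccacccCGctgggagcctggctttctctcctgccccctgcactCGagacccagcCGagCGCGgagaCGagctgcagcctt
Chrm2: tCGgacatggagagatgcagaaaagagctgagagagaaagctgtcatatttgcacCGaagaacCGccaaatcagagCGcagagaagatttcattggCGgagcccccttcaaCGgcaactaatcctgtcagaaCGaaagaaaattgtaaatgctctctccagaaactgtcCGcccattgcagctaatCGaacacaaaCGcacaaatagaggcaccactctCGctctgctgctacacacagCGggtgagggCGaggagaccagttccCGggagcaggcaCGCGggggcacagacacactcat
Vipr2: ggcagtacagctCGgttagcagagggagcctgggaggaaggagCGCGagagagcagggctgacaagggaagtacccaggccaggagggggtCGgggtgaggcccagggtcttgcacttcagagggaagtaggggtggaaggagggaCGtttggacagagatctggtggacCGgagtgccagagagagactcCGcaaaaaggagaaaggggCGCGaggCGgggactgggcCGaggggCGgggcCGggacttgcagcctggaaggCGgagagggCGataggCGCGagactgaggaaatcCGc
P2ry12: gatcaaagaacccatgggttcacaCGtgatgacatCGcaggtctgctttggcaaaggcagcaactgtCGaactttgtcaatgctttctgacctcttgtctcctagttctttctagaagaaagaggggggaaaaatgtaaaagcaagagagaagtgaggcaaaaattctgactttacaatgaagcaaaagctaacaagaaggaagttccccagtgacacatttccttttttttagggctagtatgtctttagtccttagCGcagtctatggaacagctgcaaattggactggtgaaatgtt
Drd5: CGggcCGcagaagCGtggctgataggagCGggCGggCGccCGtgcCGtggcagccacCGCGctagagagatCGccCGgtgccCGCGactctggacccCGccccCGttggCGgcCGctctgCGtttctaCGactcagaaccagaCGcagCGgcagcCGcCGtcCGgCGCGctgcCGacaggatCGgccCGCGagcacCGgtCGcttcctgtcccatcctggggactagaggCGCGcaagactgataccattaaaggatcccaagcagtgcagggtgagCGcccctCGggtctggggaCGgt
Drd2: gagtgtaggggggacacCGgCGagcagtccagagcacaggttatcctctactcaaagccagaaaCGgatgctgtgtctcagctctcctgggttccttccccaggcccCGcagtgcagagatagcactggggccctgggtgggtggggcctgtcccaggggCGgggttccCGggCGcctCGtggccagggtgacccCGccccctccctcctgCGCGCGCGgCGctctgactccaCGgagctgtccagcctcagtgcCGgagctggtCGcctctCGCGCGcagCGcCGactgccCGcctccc
Tacr2: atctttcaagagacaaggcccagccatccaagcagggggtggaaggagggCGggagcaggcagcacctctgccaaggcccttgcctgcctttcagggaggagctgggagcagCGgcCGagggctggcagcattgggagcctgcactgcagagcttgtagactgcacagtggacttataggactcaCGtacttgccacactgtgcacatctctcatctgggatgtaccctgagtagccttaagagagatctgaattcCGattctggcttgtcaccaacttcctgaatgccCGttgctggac
The windows hold 18 CG pairs at Gabbr1, 25 at P2ry1, 16 at Chrm2, 18 at Vipr2 and 4 at P2ry12. The 3 genes without a peak have 38 at Drd5, 23 at Drd2 and 6 at Tacr2. Among these 8 chosen windows a high CG count therefore stood at genes with and without a peak. Over all 49 receptor genes with a listed start site, the median was 23 CG pairs with a peak there and 8.5 without. Over all protein-coding genes with a listed start site these medians were 22 and 3.

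Most of the receptor genes carried a peak, but few carried a strong one. Of the 57 genes, 42 (73.7%, exact 95% Clopper-Pearson interval 60.3 to 84.5%) had at least 1 peak, against a background of 67.0% of all protein-coding genes, which lies inside that interval. Their widest peaks had a median width of 1014 bp (exact order-statistic interval 677 to 1418 bp), against 1515 bp for all protein-coding genes with a peak. The authors' peak score, used here only to rank and describe peaks within the list, had a median of 21.5 for the highest peak of each receptor gene (15.4 to 44.7), against 152.6 for all. The score reached the upper 50% of all 29924 peaks, which began at 35.7, in 16 of the 57 genes (28.1%), against 57.7% of all protein-coding genes. It reached the upper 25%, from 140.8, in 1 receptor gene (1.75%), against 37.3% of all. A peak of 2000 bp or more lay over 7 receptor genes (12.3%), against 17.5% of all. The receptor genes were about as long as the rest, with a median model of 17.9 kb against 17.2 kb.

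**Figure D1:**
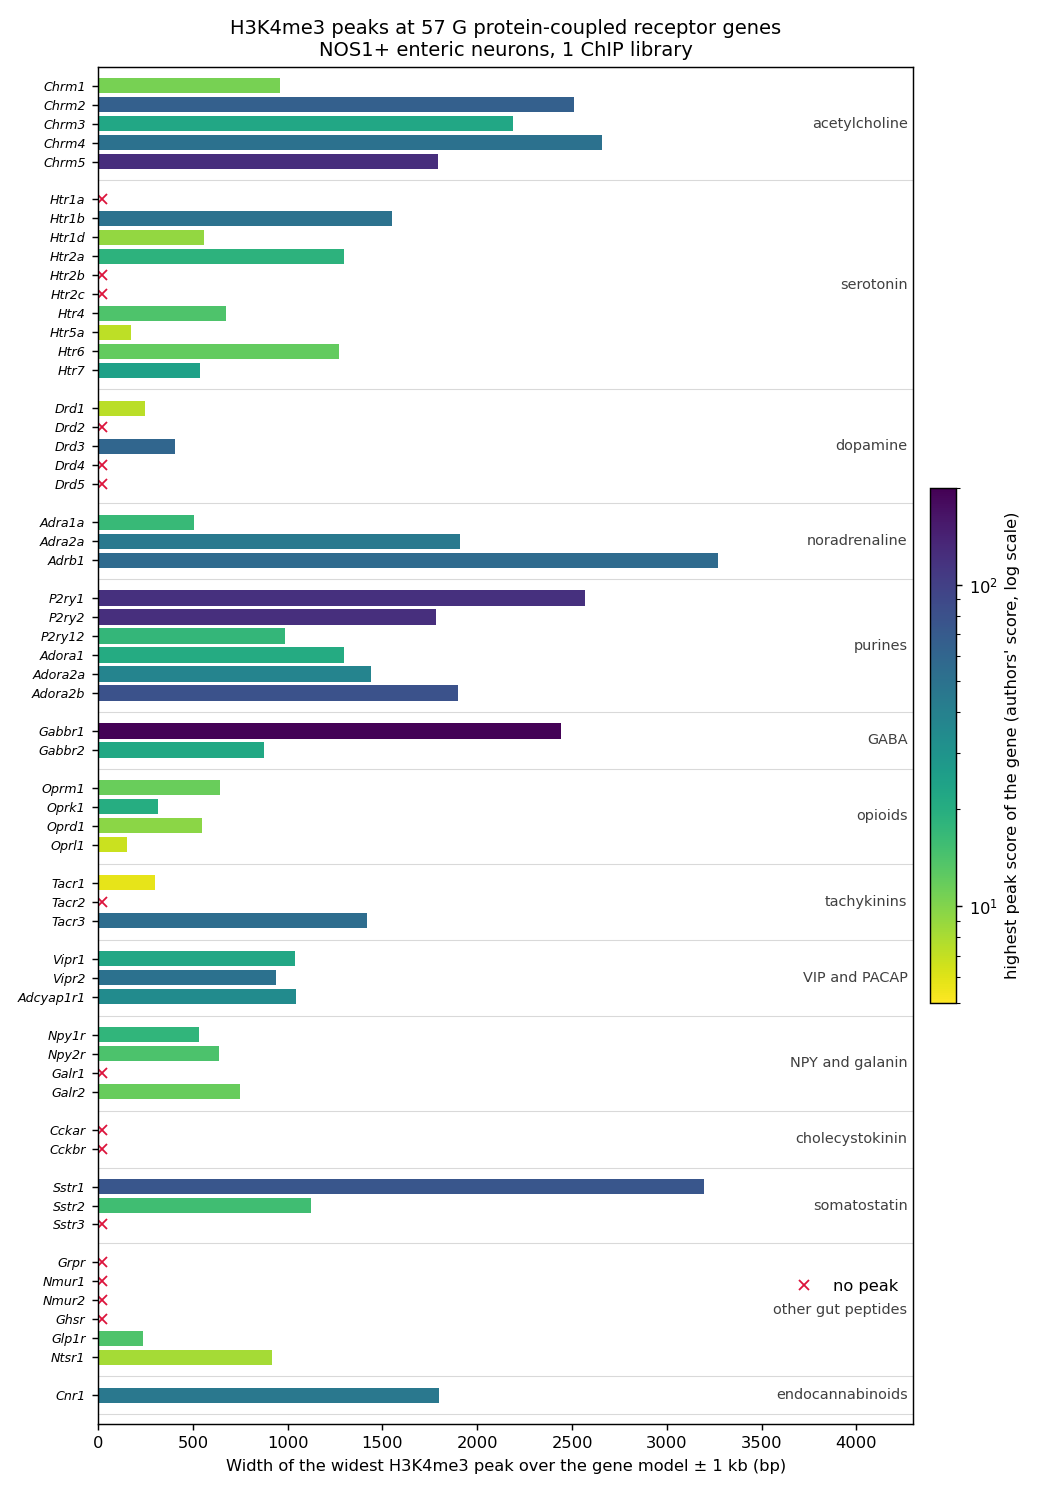
Bars give the width in bp of the widest H3K4me3 peak over each of the 57 receptor gene models with 1 kb to each side, grouped by transmitter, and their colour gives the highest score of the gene on a log scale. Crosses mark the 15 genes with no peak. Adrb1 (3268 bp) and Sstr1 (3197 bp) have the widest peaks, and Gabbr1 has the highest score (196.3).

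All 5 muscarinic acetylcholine receptor genes held a peak (exact interval 47.8 to 100%), against 67.0% of all protein-coding genes. At 4 of them it lay at an end of the model, against 61.4% of all. The M2 and M4 receptors couple to Gi, and M1, M3 and M5 to Gq. Chrm4 carried a 2657 bp peak at a score of 50.8 (chromosome 2, 91921571 to 91924227). Chrm2, whose promoter is printed above, had one of 2511 bp scoring 65.3 (chromosome 6, 36387686 to 36390196), which reached 398 bp upstream and 2112 bp downstream of the start site. Chrm3 encodes the receptor through which acetylcholine contracts gut smooth muscle, and its peak of 2188 bp had a score of 22.2. Chrm1 had a narrower peak, 961 bp wide and scored 10.6, and a window of 2500 bp took in another that scored 25.9. The widths of Chrm2, Chrm3 and Chrm4 thus stood close together, while Chrm3 had the lowest score of these 3. The peak of Chrm5 (1793 bp, score 123.1, chromosome 2, 112492170 to 112493962) lay 11353 bp from the listed start site of Chrm5 and at a start site of Aven, a gene whose model overlaps it, so it cannot be assigned to Chrm5. The peaks of Chrm1, Chrm2 and Chrm3 also came within 1 kb of another gene model (9830166K06Rik, 9330158H04Rik and Gm26861), all annotated as long noncoding RNA. ChIP signal carries no strand, so a peak cannot be divided between such neighbours. Counting only peaks away from other gene models, Chrm4 alone of the 5 kept one.

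The 6 purine receptor genes among the 57, for nucleotides and for adenosine, each had a peak at an end of the model, against 61.4% of all protein-coding genes, at medians of 1611.5 bp for width and 58.6 for score. P2ry1 encodes the Gq-coupled receptor on gut muscle-layer cells that is known for the fast purinergic inhibition of the muscle. Its peak, 2571 bp wide, scored 119.2 (chromosome 3, 61002136 to 61004706) and reached 649 bp upstream and 1921 bp downstream of the start site. P2ry2, a receptor for ATP and UTP, had a 1781 bp peak that scored 122.3 (chromosome 7, 101011223 to 101013003). P2ry12, the Gi-coupled ADP receptor of platelets and microglia, had a 987 bp peak that scored 17.4, inside the model of Med12l. Among the adenosine receptor genes, the Gs-coupled Adora2b (1898 bp, score 79.1) and Adora2a (1442 bp, 38.1) stood above the Gi-coupled Adora1 (1299 bp, 20.9). P2ry2 and P2ry1 followed Gabbr1 and the Chrm5 peak at Aven in the order of scores of the 57 genes. Of 5 further purine receptor genes outside the 57, named after their values were seen, P2ry6 had peaks of up to 625 bp with a score of 15.1, and P2ry4, P2ry13, P2ry14 and Adora3 had none.

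The GABA-B receptor works as a pair of subunits, and its genes differed widely. Gabbr1, the ligand-binding subunit, had the highest score of all 57 genes, 196.3, above 90.6% of all peaks in the list, over a peak of 2440 bp at its start site (chromosome 17, 37045305 to 37047744). A further peak (1671 bp, score 71.3) lay 3882 bp downstream of that start site. Gabbr2, which couples the pair to the G protein, had a peak at its start site (876 bp, score 15.4) and another (259 bp, score 22.0) near the far end of its model, 326841 bp away. Cnr1, the CB1 cannabinoid receptor gene, had a single peak (1799 bp, score 45.5).

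Of the 18 monoamine receptor genes, 12 had a peak (66.7%, exact interval 41.0 to 86.7%), practically the 67.0% of all protein-coding genes, at medians of 616.5 bp and 17.7 for width and score. The 3 adrenergic genes were all marked (exact interval 29.2 to 100%). Adrb1, the Gs-coupled beta-1 receptor gene, had the widest peak of the 57, 3268 bp at a score of 55.6 (chromosome 19, 56721339 to 56724606), flanked by 3 narrow peaks of 153 to 295 bp. This gene model is short, 3034 bp, and peaks covered 82.1% of it. Adra2a, the Gi-coupled receptor by which noradrenaline restrains release from nerve endings, had a 1909 bp peak that scored 44.7. Adra1a had one of 507 bp that scored 16.6. Serotonin receptor genes had peaks in 7 of 10 cases, all below a score of 50. Htr1b stood highest (1552 bp, score 49.6), followed in score by Htr7 (538 bp, 24.5) and Htr2a (1299 bp, 18.8). The Htr1b peak overlaps the long noncoding RNA gene D430036J16Rik, and that of Htr2a lies within 1 kb of a start site of another, Gm41210. Counting only peaks away from other gene models, Htr1b had none and Htr2a fragments of up to 230 bp with a highest score of 8.18. Htr4, the Gs-coupled receptor targeted by prokinetic drugs, had a 677 bp peak that scored 13.9. Htr6 had 1273 bp with a score of 12.1, Htr1d 556 bp with 9.12, and Htr5a a fragment of 174 bp with 7.18 inside its model. Htr1a, Htr2b and Htr2c had none. Htr2a also showed that splitting matters, since its peak was followed by fragments of 230 and 207 bp and the 3 spanned 2523 bp once joined.

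Of the 5 dopamine receptor genes 2 had a peak (40%, exact interval 5.27 to 85.3%), the lowest share of the monoamine groups. The interval includes the 67.0% of all protein-coding genes, and the difference was not tested. The Gs-coupled Drd1 had a fragment of 245 bp with a score of 7.32 at its start site. Drd3 had a peak (404 bp, score 60.5) inside its model (chromosome 16, 43801804 to 43802207), 39583 bp downstream of the nearest listed start site. No other gene model overlapped the Drd3 peak, and it lies at no listed start site. Drd2, Drd4 and Drd5 had none, although their promoter windows held 23, 15 and 38 CG pairs. The nearest peaks to these 3 genes lay 77.0 kb from Drd2 at Ttc12, 12.6 kb from Drd4 at Sct, and 11.6 kb from Drd5, where no gene is annotated.

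Receptors for peptides were marked in 16 of 25 genes (64.0%, exact interval 42.5 to 82.0%), close to the 67.0% of all protein-coding genes, at medians of 695.5 bp and 14.8. The other 32 genes had peaks in 26 (81.2%, exact interval 63.6 to 92.8%), with a median of 1370.5 bp and 31.3. The intervals of the 2 shares overlap, and the difference was not tested. All 3 receptors for VIP and PACAP, peptides released by inhibitory motor neurons, couple to Gs. Each of the 3 genes had a peak at the start site (exact interval 29.2 to 100%), against 63.0% of protein-coding genes with a listed site. Vipr2 had the highest score of them, 50.2, over 936 bp (chromosome 12, 116077357 to 116078292), a peak that also overlaps the long noncoding RNA gene Gm46383. Adcyap1r1, the PACAP-preferring receptor gene, had 4 peaks, the widest 1042 bp at a score of 34.0, and its 4 peaks spanned 3129 bp once joined. Vipr1 had a peak (1041 bp, score 22.2) that it shares with a start site of Lyzl4, and without that peak its widest was 318 bp with a highest score of 6.16. Tachykinin receptors differed more. Tacr3, the neurokinin B receptor gene, had a 1418 bp peak that scored 53.9. At Tacr1, the substance P receptor gene, 3 fragments of 176 to 300 bp lay around the start site with scores from 5.29 to 5.74. Tacr2, the neurokinin A receptor gene known from gut smooth muscle, had none, and its nearest peak lay 20.7 kb away.

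Somatostatin receptors, which couple to Gi, ranged from the second widest peak of the 57 genes to no peak. Sstr1 had a 3197 bp peak that scored 74.2 (chromosome 12, 58212098 to 58215294), and 69.2% of its short model was covered. Sstr2 had 1122 bp with a score of 15.4, inside the model of Slc39a11, and Sstr3 had none. All 4 opioid receptor genes had a peak (exact interval 39.8 to 100%), against 67.0% of all protein-coding genes, but narrow ones of low score. Oprm1, the mu receptor through which opiates slow intestinal transit, had a 645 bp peak that scored 11.6 (chromosome 10, 6788647 to 6789291). It began 71 bp downstream of a start site inside the model, not at the end of the model. Oprk1, the kappa receptor gene, had 314 bp with a score of 20.5, and Oprd1, the delta receptor gene, 550 bp with a score of 9.48 beside fragments of 195 and 191 bp. Oprl1, the nociceptin receptor gene, had 153 bp with a score of 6.67, the narrowest of the 42 genes and as narrow as any peak of the list.

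Neuropeptide Y and galanin are peptides of enteric inhibitory neurons. Of their 4 receptor genes 3 had a peak, against 67.0% of all protein-coding genes. Each of the 3 had one within 1 kb of a listed start site, against 63.0% of protein-coding genes with such a site. The 3 genes were Npy1r (530 bp, score 17.9), Npy2r (638 bp, 14.2) and Galr2 (746 bp, 11.9). Galr1, which has no listed start site, had no peak. Of the 6 genes for other gut peptides 2 had a peak, against 67.0% of all protein-coding genes. Both cholecystokinin receptor genes, Cckar and Cckbr, had no peak, as did Grpr for gastrin-releasing peptide, Nmur1 and Nmur2 for neuromedin U, and Ghsr for ghrelin. Ntsr1, a neurotensin receptor gene, had a 916 bp peak that scored 8.23. Glp1r, the receptor gene for glucagon-like peptide 1, had 239 bp with a score of 14.01, which ended 54 bp before the start site and outside the gene model. The 15 genes without a peak lay far from the next peak in most cases. The gap was 4.78 kb at Sstr3, between 11.6 and 77.0 kb at 9 others, and from 101.4 to 553.6 kb at Cckar, Htr1a, Grpr, Htr2c and Nmur2.

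Ordered by G protein, 11 of 12 Gs-coupled genes had a peak (91.7%, exact interval 61.5 to 99.8%), 20 of 25 Gi-coupled genes (80.0%, 59.3 to 93.2%) and 11 of 20 Gq-coupled genes (55.0%, 31.5 to 76.9%). The intervals overlap, all 3 include the 67.0% of all protein-coding genes, and the order was not tested. The Gq count includes the Chrm5 peak that lies at Aven. The Gs count includes fragments under 300 bp at Glp1r and Drd1, and the Vipr1 peak shared with Lyzl4. The Gi count includes such fragments at Htr5a and Oprl1. The missing genes of the Gq group were Htr2b, Htr2c, Tacr2, Cckar, Cckbr, Grpr, Nmur1, Nmur2 and Ghsr, of which 7 are peptide receptors. The median scores were 24.5 for the Gs, 20.7 for the Gi and 18.8 for the Gq genes.

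Start sites were listed for 49 of the 57 genes. The genes without one are Chrm1, Htr4, Adra1a, Adora2a, Oprk1, Galr1, Cckar and Sstr1. A peak lay within 1 kb of a listed start site at 33 of the 49 (67.3%, exact interval 52.5 to 80.1%), against 63.0% of protein-coding genes with a listed site. It covered the site itself at 28 of the 49, against 9777 of the 17492 protein-coding genes with a listed site. Peaks at an end of the model were found for 37 of the 57, against 61.4% of all protein-coding genes. Over the 28 genes whose start site was covered, the peak reached a median of 384 bp upstream and 838.5 bp downstream, against 450 and 1041 bp over 9777 protein-coding genes. It reached further downstream than upstream at 21 of the 28, against 84.9% of all. The 7 exceptions were P2ry2, Vipr1, Npy1r, Npy2r, Oprd1, Htr7 and Sstr2. In total the 42 genes held 65 peaks. A single peak lay at 26 of them, 2 peaks at 11 and 3 or more at 5.

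**Figure D2:**
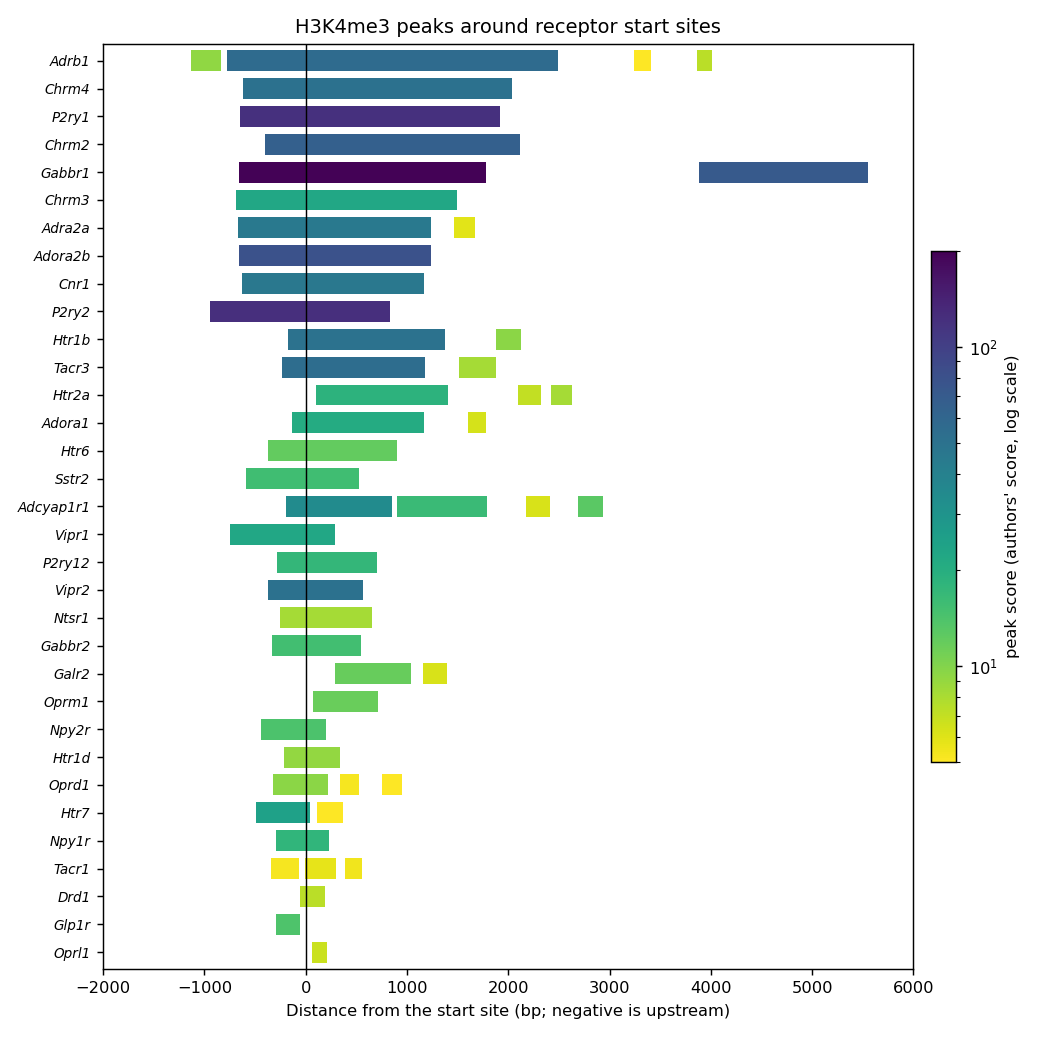
Each row is 1 of the 33 receptor genes with a peak within 1 kb of a listed start site, and each bar a peak, placed by its distance in bp from the start site nearest to the gene's widest such peak and coloured by score on a log scale. Peaks over 6 kb away are not drawn. Of the bars that cover the start site, those of Adrb1, Chrm2 and Chrm4 reach over 2 kb downstream. Separate bars further downstream also pass 2 kb at other genes, such as Gabbr1. The bars of Tacr1, Drd1, Glp1r and Oprl1 are fragments of 300 bp or less.

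Scores were also set side by side within classes of peak width. Among genes whose widest peak had 2000 bp or more, that peak had a median score of 65.3 at the 7 receptor genes, against 169.8 at 3839 protein-coding genes. From 1000 bp to under 2000 bp the medians were 41.4 at 14 receptor genes and 159 at 7618 genes. From 500 bp to under 1000 bp they were 14.1 at 14 receptor genes and 58.0 at 2199 genes. Under 500 bp they were 7.32 at 7 receptor genes, whose scores ran up to the 60.5 of Drd3, and 9.63 at 1009 genes. The cause of the difference was not tested. Of the 7 widest, Gabbr1 alone exceeded the median of its width class.

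Promoters rich in CG pairs carry H3K4me3 in most cell types, so the receptor genes were set beside others of like CG content. For each gene the listed start site with most CG pairs in its 300-base window was taken. The receptor genes had a median of 16 CG pairs, against 15 for 17492 protein-coding genes. With 20 or more CG pairs, 18 of 20 receptor genes had a peak (90.0%, exact interval 68.3 to 98.8%), against 97.5% of 6803 genes, and the exceptions were Drd2 and Drd5. With 10 to 19, the counts were 8 of 14 (57.1%, 28.9 to 82.3%), against 87.0% of 3605 genes, and Ghsr, Cckbr, Drd4, Htr5a, Nmur1 and Sstr3 had none. With 5 to 9 they were 5 of 10, against 39.4% of 2273 genes, and with 4 or fewer 2 of 5, at P2ry12 and Galr2, against 6.59% of 4811 genes. Median scores at the marked start sites were lower in the receptor genes in each of the 4 classes. With 20 or more CG pairs the median was 21.5 in receptor genes and 168.3 in all, and with 10 to 19 it was 41.8 and 144.6. Htr7 and Gabbr2, with 46 CG pairs each, the most of the receptor genes, had scores of 24.5 and 15.4 there.

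**Figure D3:**
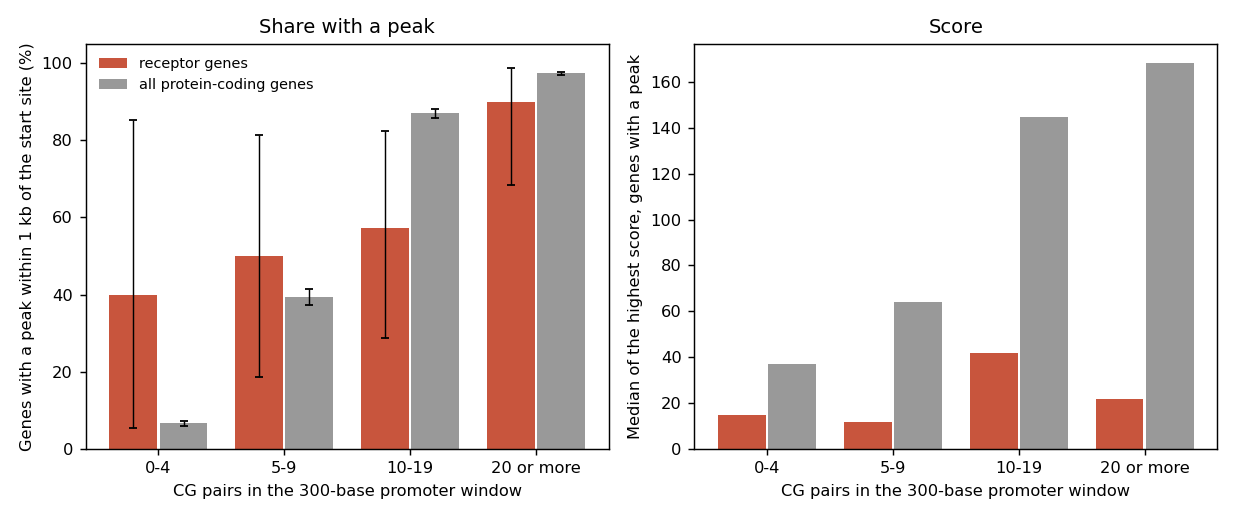
The left panel gives the percent of genes with a peak within 1 kb of the start site, by the number of CG pairs in the 300-base promoter window, for receptor genes (left bars) and all protein-coding genes (right bars), with exact 95% intervals over genes. The right panel gives the median of the highest score of the genes with a peak, with no error since the score is 1 value per peak. Scores of receptor genes are lower in every class.

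Short motifs were searched on both strands of the same windows. The GC box GGGCGG, which contains a CG pair, was in 59.2% of the receptor windows, against 48.1% of all, and the CCAAT box in 32.7%, against 38.4%. TATAAA was in 3 receptor windows (Adra2a, Oprl1 and Tacr3; 6.12%), against 12.9% of all. The cAMP response element TGACGTCA was in 1, at Sstr2 (2.04%), against 2.34% of all.

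Genes downstream of the receptors were more widely marked than the receptors and had higher scores, and these lists share no gene with the 57. Over the model the background was 67.0% of all protein-coding genes. Median models were 39.3 kb for G protein subunits, 83.4 kb for effectors and 45.3 kb for genes that end the signal, against 17.9 kb. At an end of the model the shares of these lists were 92.9%, 87.0% and 83.3%, against 64.9% of the receptors and 61.4% of all. Of 28 G protein subunit genes 27 had a peak, with a median score of 129.6, led in width by Gnaq (3752 bp), Gnb2 (3418 bp), Gnas (3195 bp) and Gnai2 (3167 bp), and Gnb3 had none. All 23 effector genes had one, with a median score of 97.2, led by Plcb3 (3195 bp) and Prkar1a (3188 bp), followed by Adcy6 (2927 bp) and Prkaca (2720 bp). Of 24 genes for receptor kinases, arrestins and RGS proteins, which end the signal, 22 had one, with a median score of 98.5, led by Arrb1 (3061 bp), Grk2 (2321 bp), Rgs3 (2283 bp) and Rgs4 (2166 bp). The Rgs3 peaks lay at no end of its model and at no listed start site of it. Other receptors were closer to the 57. Of 32 further receptors of the same and related transmitters 21 had a peak, with a median score of 24.1, among them Grm8 (2135 bp), Cnr2 (1697 bp), Adra2c and Adrb3 (1582 bp each). The Cnr2 peak lay at an end of its model and not within 1 kb of its listed start site. That of Adrb3 lay at no end of its model. Of 24 other peptide and hormone receptors 19 had one, with a median score of 21.0, led by Ednrb (2821 bp, score 107.6), the endothelin receptor gene of enteric neural crest, then Ednra (1267 bp), Avpr1a (1252 bp) and Agtr1a (1096 bp). Ligand-gated ion channels, the other receptors of transmitters, had peaks in 40 of 56 genes (71.4%, exact interval 57.8 to 82.7%), at medians of 972 bp and 39.3, led by Grik3 (3451 bp), Gria3 and P2rx7 (2701 bp each) and Grik5 (2502 bp). Genes for peptide ligands, or for making or storing other transmitters, had the lowest share, 9 of 28 (32.1%, exact interval 15.9 to 52.4%). They were led by Dagla (3228 bp) and Daglb (1700 bp), which encode enzymes, then Npy (1358 bp) and Pomc (860 bp). The Pomc peak lay at an end of its model and not within 1 kb of its listed start site. Of the 24 genes of this list with a listed start site, 4 had a peak there (16.7%), against 63.0% of protein-coding genes with one. The median model of this list was 8.54 kb. Vip, Cck, Sst and Tac1 had no peak. Of their receptor genes among the 57, Vipr1, Vipr2, Sstr1 and Sstr2 had peaks, and Sstr3, Cckar and Cckbr had none. For the Tac1 peptides, substance P and neurokinin A, Tacr1 had only fragments of up to 300 bp and Tacr2 had no peak. None of these differences between lists was tested.

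**Figure D4:**
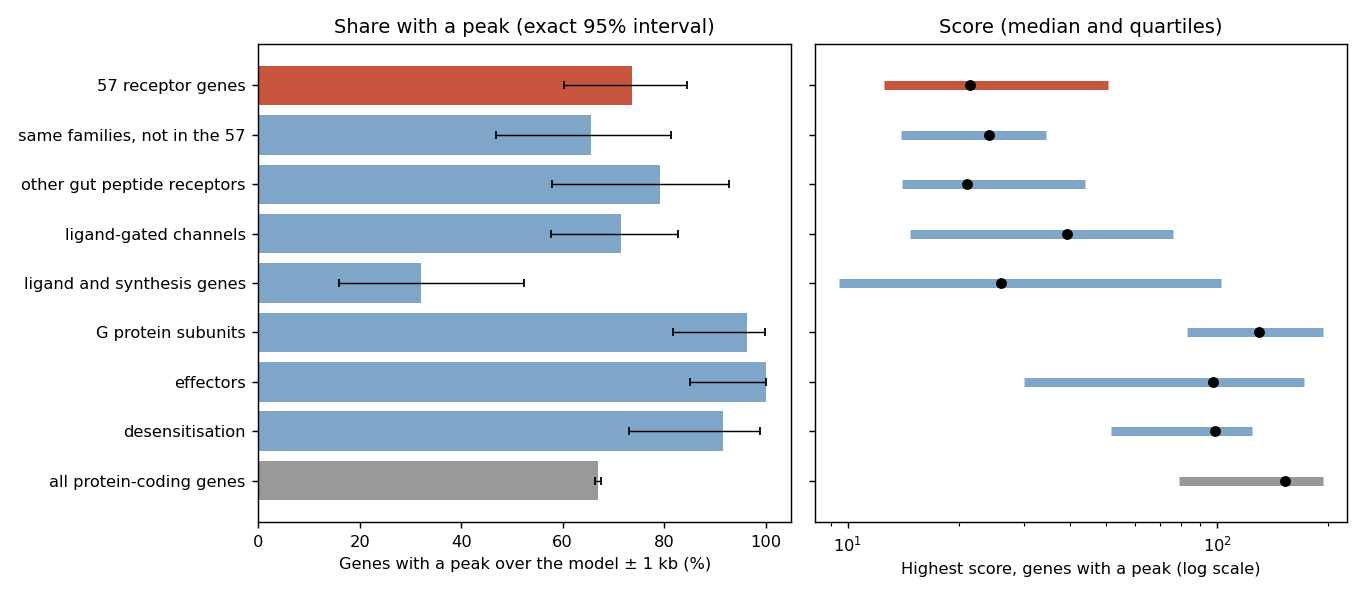
The left panel gives the percent of genes with an H3K4me3 peak over the model with 1 kb to each side, with exact 95% intervals over genes, for the 57 receptor genes, 7 related lists and all protein-coding genes. The right panel gives the median (point) and quartiles (bar) of the highest score of the genes with a peak, on a log scale, and the receptor lists lie far below the G protein, effector and desensitisation lists.

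Markers of several gut cell types carried peaks in this library. All 6 enteric neuron markers, 4 of 5 nitrergic, 6 of 6 glial, 6 of 6 smooth muscle and 5 of 5 interstitial or fibroblast-like markers had one, against 3 of 5 endothelial, 3 of 6 epithelial and 2 of 6 leukocyte markers. Vip was the nitrergic marker with none, and Nos1 itself had 1 peak of 183 bp inside its model. The background was 67.0% of all protein-coding genes. Median scores were 59.8 for the enteric neuron, 73.5 for the nitrergic, 48.9 for the glial, 31.5 for the interstitial and 16.4 for the smooth muscle markers. They were 14.2 for the endothelial, 20.2 for the epithelial and 85.8 for the leukocyte markers with a peak, the last over Cd79a (164.5) and Ptprc (7.18). The Cd79a peak lay at an end of its model and not within 1 kb of its listed start site. Of the 5 leukocyte markers with a listed start site, 1 had a peak there, Ptprc, with 153 bp and a score of 4.23. Several receptor genes, Chrm3 and P2ry1 among them, are also used by non-neuronal cells of the gut wall. The part of such cells in the receptor peaks was not tested, and a low score from a few marked cells cannot be told apart from weak marking in all cells.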

How the data were processed

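H3K4me3 was profiled in 1 ChIP library, with 1 input library. Per the submitters' processing notes, BWA, Picard, MACS2 and build mm10 were used, without roles or versions. The track line names MACS2 peaks of a paired-end library, per the file headers. The score of each deposited peak is the authors' own. Its scale, the peak threshold and the handling of duplicate reads are not stated. The file holds no read counts, so the depth is unknown, and low depth loses and splits weak peaks first. No column of another sample was used.

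Gene models and start sites came from RefSeq tables on GRCm38.p6. All 57 symbols matched a gene model, 49 a listed start site. Peaks with at least 1 bp in a model with 1 kb to each side were assigned to it in Python 3.11.15 with pandas 2.3.3 and scipy 1.17.1. Intervals are exact at 95%. The code was tested on simulated data. The members, lists and comparisons were chosen with earlier results of these data known. All members are named; of each related list the 4 genes with the widest peaks are named, and Vip, Cck, Sst, Tac1 and Gnb3 were chosen after their values were seen. Mlnr was not in the annotation. One gene that this rule takes is counted in its list and not reported here by name. Alternatives were stricter scores, other windows, a minimum width of 300 bp, an overlap of 50% of the peak, merging at 1 kb, and peaks away from other genes.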

Additional observations from a re-analysis of the deposited data

How the results depend on the processing

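The counts of receptor genes with a peak depended on the score threshold. With the upper 50% of scores kept, 16 genes had a peak over the model, 14 at an end and 12 at a listed start site, at medians of 1848.5 bp and 58.0. Peaks over the model were then at 28.1% of the receptor genes and 57.7% of all protein-coding genes, and peaks at an end at 24.6% and 53.0%. With the upper 25%, Gabbr1 alone was left (1 gene over the model, at an end and at a listed start site), with 2440 bp and a score of 196.3. With no window beside the model, 24 genes had a peak at an end (37 with 1 kb), and Glp1r lost its peak. That is 42.1% of the receptor genes, below the 47.6% of all, whereas with 1 kb it was 64.9%, above the 61.4% of all. All other settings left each count within 1.5 times its value and each median inside its interval. The highest score of Chrm1 was 25.9 with windows of 2500 bp. Merging peaks closer than 1 kb changed the widest peak by over 1.5 times at 7 genes, Adcyap1r1, Adra1a, Adrb1, Htr2a, Htr7, Oprd1 and Tacr1. Counting only peaks away from other gene models, 34 genes had a peak, without Chrm1, Chrm2, Chrm3, Chrm5, Htr1b, P2ry12, Sstr2 and Vipr2, and the widest peak fell to 230 bp at Htr2a and 318 bp at Vipr1. With peaks of at least 300 bp 38 genes had one, without Drd1, Glp1r, Htr5a and Oprl1. That is 66.7% of the receptor genes, against 64.8% of all protein-coding genes. The start site counts and the setting without peaks on another coding gene's start site, which leaves 41 genes, were added after seeing the data. The share of all genes was not computed for settings that drop peaks at other genes. Nor was it for start site counts under the stricter scores. No paired analysis was possible because the study has 1 ChIP library and 1 input library and no test was made. Depth is unknown, so a missing peak may lie below what this library could show.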
